A study of Rattus norvegicus with 36 samples.

Results

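This account follows 37 genes of the interferon response and of antigen processing through the liver of rats dosed with decaBDE (decabromodiphenyl ether, used as a flame retardant in plastics and textiles). A gene was measured where the array annotation gave at least 1 probe set (the group of short probes that reads out 1 transcript) only that gene's symbol. Where a gene had several such probe sets, the one brightest on average over all arrays stood for it. The rule found 34 of the 37 genes, out of 14217 genes with a symbol of their own and 31042 probe sets tested. Xaf1, Ifi47 and Gbp5 had no probe set under their symbol alone, so their expression is not analysed here.

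The study measured liver RNA of male Harlan Sprague Dawley rats on Affymetrix 3' expression arrays, with 6 groups of 6 arrays, 36 in all. Dosing began at 7 weeks of age, and all rats took corn oil by gavage, 5 ml per kg of body weight, on 5 consecutive days. The vehicle group had corn oil alone, and the others had decaBDE in it. The highest dose was 959 mg/kg, and the others were 95.9, 9.59, 0.959 and 0.1 mg/kg. The left liver lobe was collected 1 day after the last dose. The labels do not say outright that each array is a rat of its own, so every p-value here measures the spread between arrays, and 6 arrays a group limit the precision. Values are log2 RMA signals, on which a difference of 1 is 2-fold. Levels of different genes are not compared, since each probe set has its own brightness.

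Array medians ran from 5.12 to 5.21, and 9 hepatocyte markers averaged 14.2 in each group, so the tissue carried its defining transcripts. Cyp1a1, the drug-metabolizing enzyme induced through the aryl hydrocarbon receptor, had a mean of 4.69 in vehicle, 6.33 at 95.9 mg/kg and 9.41 at 959 mg/kg, and limma called it at both doses (at 959 mg/kg the log2 difference was 4.72, adjusted p = 3.61e-17). At 0.1 mg/kg, replicate 6 was the least typical array by limma's estimated weights (0.517, the lowest of 36). The difference between the 3' and 5' probe sets of the actin control, which grows with RNA degradation, lay above 1.3 on 4 arrays. They were replicates 4 and 5 at 0.1 mg/kg, replicate 4 at 0.959 mg/kg and replicate 2 at 9.59 mg/kg. The medians of the dose comparisons that these 4 arrays move are given with and without them.

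Type I interferons bind a receptor whose signal brings STAT2 and IRF9 together in a complex that switches on genes carrying the interferon-stimulated response element (ISRE). Interferon gamma acts on the gamma-activated site (GAS) and raises IRF1, the immunoproteasome and the peptide transporter that load antigen onto MHC class I. In the liver, hepatocytes respond to interferon, and Kupffer cells, the resident macrophages, both sense microbial products from the gut and respond.

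Because the measured genes moved together between arrays, promoters of the listed genes were searched for the letters of both elements. The search covered the 250 bases before each transcript start as given by RefSeq for the rat build GRCr8. The ISRE was searched as GAAANNGAAA, or TTTCNNTTTC on the other strand, and the GAS as TTCNNNGAA, which reads the same on both strands. Of the 37 genes, 31 had a promoter entry, among them Xaf1, Ifi47 and Gbp5, which were not measured. The ISRE letters stood in 18 of the 31 (58.1%), against 3.41% of 33469 promoters, and the GAS letters in 8 (25.8%), against 7.67%. The genes were listed for their part in the interferon response, so an excess of these letters was likely from the outset. It is no evidence about the shared movement on these arrays. A match is a description of letters and not a site shown to be used. The stretches below are shown because they hold the ISRE letters in genes of several roles, among them a transcription factor, antiviral effectors and the antigen presentation machinery. Capitals mark the match, and each runs 5′ to 3′ on the gene's strand.
Irf7 (chr1:205800058-205800117, minus strand): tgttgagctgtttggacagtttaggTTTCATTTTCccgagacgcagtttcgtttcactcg
Ifit3 (chr1:241527257-241527316, plus strand): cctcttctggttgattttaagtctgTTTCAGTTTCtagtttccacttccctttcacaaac
Oas1a (chr12:41330400-41330465, plus strand): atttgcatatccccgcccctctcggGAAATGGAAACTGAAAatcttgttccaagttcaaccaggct
Gbp2 (chr2:234005671-234005726, plus strand): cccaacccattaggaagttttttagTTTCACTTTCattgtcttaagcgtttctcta
Bst2 (chr16:18255058-18255123, minus strand): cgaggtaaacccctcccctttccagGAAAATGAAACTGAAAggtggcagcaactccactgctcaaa
Tap1 (chr20:4668630-4668689, minus strand): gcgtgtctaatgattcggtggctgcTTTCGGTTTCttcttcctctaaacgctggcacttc
Tap2 (chr20:4652303-4652362, minus strand): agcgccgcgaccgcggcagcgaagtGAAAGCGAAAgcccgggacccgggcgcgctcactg
Psme2 (chr15:33052770-33052829, minus strand): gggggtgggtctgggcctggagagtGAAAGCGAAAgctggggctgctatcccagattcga
B2m (chr3:129549155-129549214, plus strand): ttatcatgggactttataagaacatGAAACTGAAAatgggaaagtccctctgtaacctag
Cxcl10 (chr14:15988816-15988857, plus strand): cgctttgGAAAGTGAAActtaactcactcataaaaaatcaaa
In Oas1a and Bst2 a pair of ISRE matches overlap, so their capitals run on as 1 block. In the other 8 stretches the match stands alone. The match in Ifit3 began 44 bases before the transcript start, that in Irf7 69 bases, that in Tap1 121 bases and that in Cxcl10 243 bases.

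The 2 further stretches show the GAS letters in a pair of transcription factors of the response.
Irf1 (chr10:38417768-38417826, plus strand): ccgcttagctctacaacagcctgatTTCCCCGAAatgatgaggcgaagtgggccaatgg
Irf9 (chr15:33065712-33065770, plus strand): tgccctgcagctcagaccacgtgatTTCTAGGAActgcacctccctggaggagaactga
Among the 28 measured genes with a promoter entry, 16 held the ISRE letters. Their median standard deviation (SD) between arrays of a dose group was 0.371, against 0.389 in the 12 without the letters. The median correlation with the other measured genes was 0.88 in both. The SDs ran from 0.079 to 0.89 with the letters and from 0.087 to 1.01 without, so the ranges overlapped almost fully.

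The interferon genes differed widely between arrays of the same dose group, vehicle included. The median SD within a dose group, pooled over the 6 groups, was 0.371 for the 34 genes and 0.141 for all 31042 probe sets. Of the 34, 11 lay in the top 1% of all probe sets by this SD, 23 in the top 5% and 30 above the median of all. The SD was largest in Mx2 (1.07), Mx1 (1.01), Usp18 (0.99) and Oas1a (0.89). It was smallest in B2m (0.079), Psme1 (0.087), Psme2 (0.10) and Adar (0.13). A wide spread was not particular to the interferon genes. Of 11 Kupffer cell and macrophage markers, 10 lay in the top 5%, and their median SD was 0.407. Dose groups held a median of 9.25% of the sum of squares of the 34 genes, against 14.1% for all probe sets. Most of the variance thus lay between arrays given the same dose, in the 34 genes as in probe sets at large. With 6 groups of 6 arrays, a share near that of all probe sets arises without any dose effect, so neither share measures one. B2m and the Psme subunits were among the brightest of the 34, and bright probe sets vary less on these arrays, as the grey cloud of the plot of spread against level shows. Among probe sets of like level, the SD of B2m lay at the 84.5th percentile, that of Psme1 at the 46.5th and that of Psme2 at the 44.2nd.

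**Figure D1:**
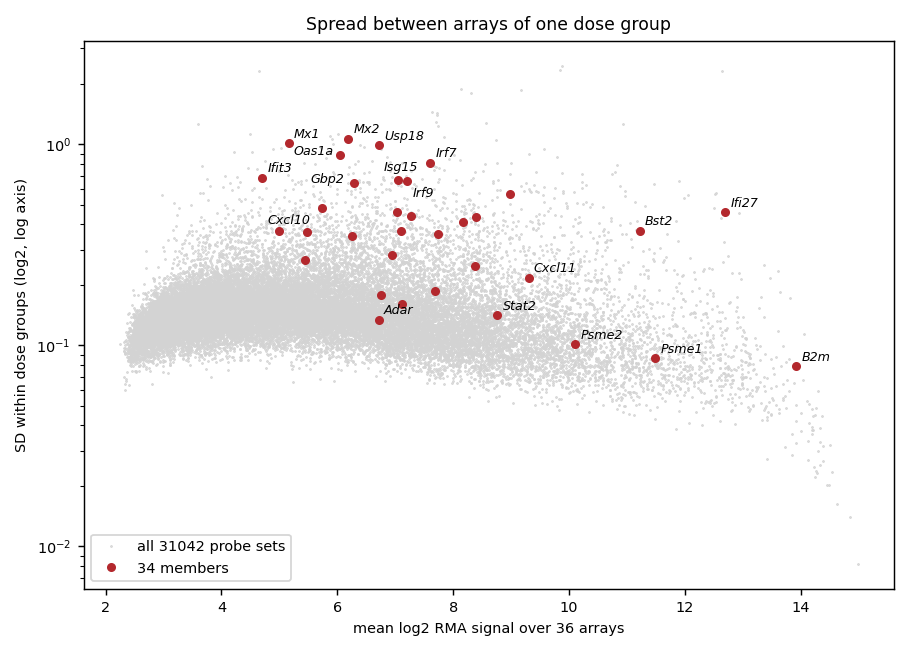
SD between arrays of a dose group (log2, log axis) against the mean log2 RMA signal over 36 arrays, with all 31042 probe sets in grey and the 34 genes in red. Mx2, Mx1, Usp18 and Oas1a lie near the upper edge with SDs of 0.89 to 1.07, and B2m, Psme1 and Psme2 lie between 0.079 and 0.10.

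The spread was of like size in every group. The median SD of the 34 genes was 0.386 in vehicle, 0.397 at 0.1 mg/kg, 0.361 at 0.959 mg/kg, 0.329 at 9.59 mg/kg, 0.385 at 95.9 mg/kg and 0.352 at 959 mg/kg. For all probe sets it ran from 0.124 to 0.137. The ratio of the highest to the lowest array of a group had a median between 1.84-fold and 2.12-fold over the 34 genes. The widest ratio of a single gene was 8.58-fold, at 0.1 mg/kg, and vehicle reached 7.19-fold.

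**Figure D2:**
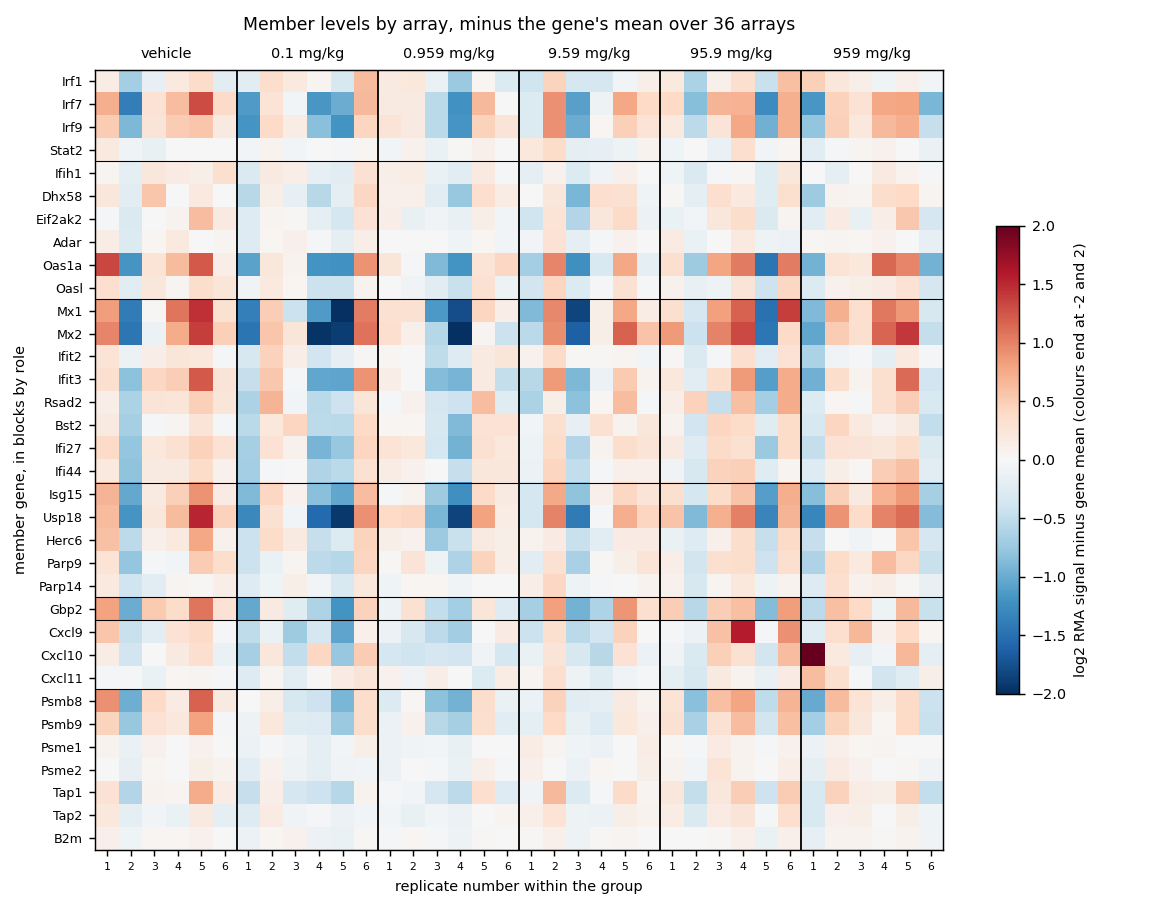
Level of each of the 34 genes on each of the 36 arrays minus that gene's mean over all arrays (log2, colours end at -2 and 2), with genes in blocks by role and arrays in columns by dose group. Blue columns such as vehicle replicate 2 and 0.959 mg/kg replicate 4 run through most genes. On 959 mg/kg replicate 1 most genes are blue and Cxcl10 is at the red end.

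Among the transcription factors, Irf7, the master regulator that interferon itself induces, ranged widely inside each group. Its lowest, median and highest arrays were 6.21, 8.10 and 8.90 in vehicle, 6.43, 7.08 and 8.25 at 0.1 mg/kg, and 6.39, 7.69 and 8.25 at 0.959 mg/kg. They were 6.50, 7.75 and 8.51 at 9.59 mg/kg, 6.35, 8.14 and 8.30 at 95.9 mg/kg, and 6.44, 7.97 and 8.39 at 959 mg/kg. The lowest array of a group lay between 6.21 and 6.50 and the highest between 8.25 and 8.90, so all 6 groups overlapped from 6.50 to 8.25. Irf9, which joins STAT2 on the ISRE, ran from 6.29 to 7.76 in vehicle and from 6.00 to 8.11 over all arrays, with an SD of 0.66. Irf1, the factor most tied to interferon gamma, ran from 7.05 to 8.10 in vehicle with a pooled SD of 0.36. Stat2, a transcription factor of the type I pathway, varied little in absolute terms. Its lowest, median and highest arrays were 8.60, 8.76 and 8.96 in vehicle, 8.70, 8.74 and 8.83 at 0.1 mg/kg, and 8.62, 8.76 and 8.86 at 0.959 mg/kg. They were 8.57, 8.74 and 9.13 at 9.59 mg/kg, 8.62, 8.74 and 9.10 at 95.9 mg/kg, and 8.53, 8.75 and 8.85 at 959 mg/kg. Its group medians all lay between 8.74 and 8.76. Its SD of 0.14 stood at the 50.6th percentile of all probe sets and at the 67.3rd among probe sets of like level.

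The sensors of viral RNA and the enzymes that act on RNA split into wide and narrow members. Oas1a, which makes the messenger that activates RNase L, had lowest, median and highest arrays of 4.87, 6.50 and 7.38 in vehicle and of 5.10, 6.29 and 7.20 at 959 mg/kg. The range of vehicle thus enclosed that of the highest dose. Dhx58, a regulator of RIG-I-like sensing, had an SD of 0.37. Eif2ak2, the kinase PKR that halts translation on double-stranded RNA, had an SD of 0.28, and Oasl, a relative of the OAS enzymes, had an SD of 0.27. Ifih1, the sensor MDA5, had an SD of 0.18. Adar, which edits double-stranded RNA, ran only from 6.44 to 7.00 over all 36 arrays.

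The antiviral effectors held the widest members. Mx1, a GTPase that blocks viral nucleocapsids, had lowest, median and highest arrays of 3.77, 5.73 and 6.61 in vehicle, 3.08, 4.38 and 6.18 at 0.1 mg/kg, and 3.39, 5.38 and 5.59 at 0.959 mg/kg. They were 3.33, 5.29 and 6.12 at 9.59 mg/kg, 3.67, 5.74 and 6.54 at 95.9 mg/kg, and 4.28, 5.68 and 6.22 at 959 mg/kg. Over all arrays its level spanned 11.6-fold, and the ranges of all groups had the stretch from 4.28 to 5.59 in common. Mx2, its paralog, had lowest, median and highest arrays of 4.74, 6.80 and 7.57 in vehicle, 4.23, 5.59 and 7.28 at 0.1 mg/kg, and 5.15, 6.61 and 7.61 at 959 mg/kg, and spanned 13.2-fold over all arrays. Ifit3, one of the proteins that hold back translation of foreign RNA, had an SD of 0.68, and its relative Ifit2 had an SD of 0.25. Rsad2 (viperin, which makes a chain-terminating nucleotide) and Ifi27 each had an SD of 0.46. Bst2 (tetherin, which holds budding virions at the membrane) had an SD of 0.37 and Ifi44 an SD of 0.35. Ifi27 and Bst2 kept these SDs at bright levels of 12.7 and 11.2, where most probe sets vary less.

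Isg15, the ubiquitin-like protein that interferon attaches to other proteins, followed the same course. Its lowest, median and highest arrays were 6.02, 7.37 and 7.94 in vehicle, 6.01, 6.68 and 7.67 at 0.1 mg/kg, and 5.82, 7.08 and 7.44 at 0.959 mg/kg. They were 6.24, 7.23 and 7.81 at 9.59 mg/kg, 5.95, 7.39 and 7.77 at 95.9 mg/kg, and 6.20, 7.38 and 7.90 at 959 mg/kg. The lowest arrays of the 6 groups lay between 5.82 and 6.24 and the highest between 7.44 and 7.94. Usp18, which removes ISG15 and restrains the interferon receptor, spanned 5.54 to 8.25 in vehicle and 4.80 to 7.63 at 0.1 mg/kg. Parp9 had an SD of 0.41 and Herc6, the rodent ligase for ISG15, an SD of 0.37. Parp14, an ADP-ribosyltransferase like Parp9, had an SD of 0.19. Gbp2, a guanylate-binding GTPase that attacks vacuoles of intracellular microbes, had lowest, median and highest arrays of 5.30, 6.74 and 7.36 in vehicle, 5.09, 5.86 and 6.75 at 0.1 mg/kg, and 5.77, 6.44 and 6.93 at 959 mg/kg.

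**Figure D3:**
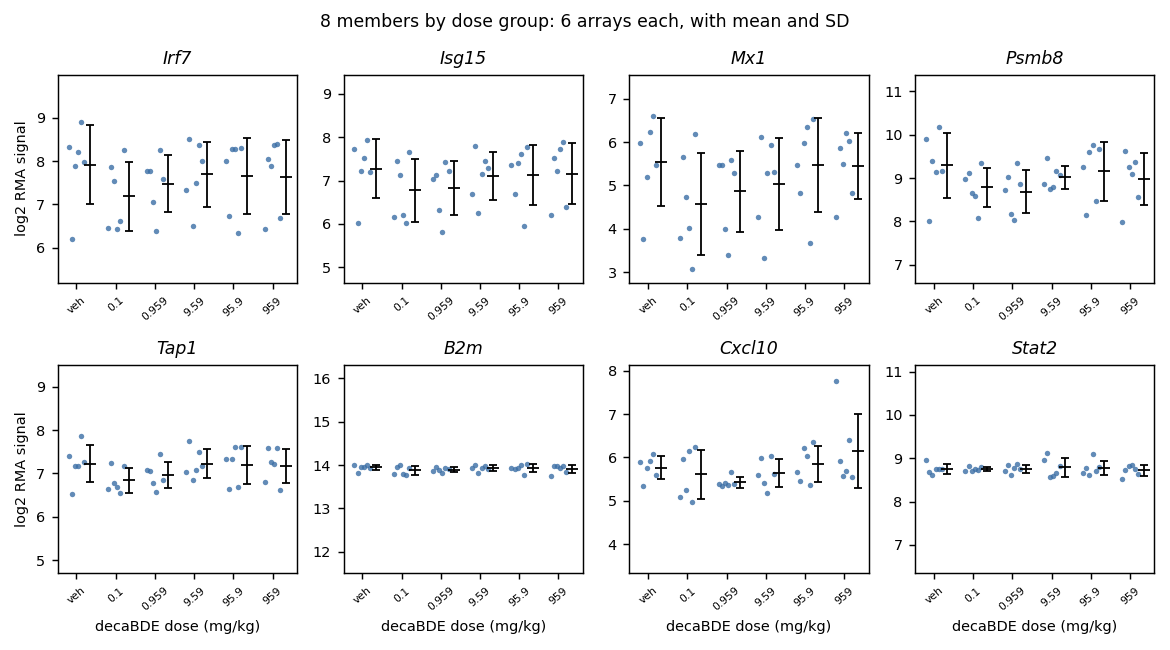
log2 RMA signal of 8 of the genes by dose group, with a point for each of 6 arrays and the mean with its SD beside them, and y axes of equal span. Irf7, Isg15 and Mx1 spread over more than 1 log2 unit in every group, and B2m and Stat2 stay narrow.

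The CXCR3 chemokines, which call T cells and natural killer cells into tissue, did not vary as 1 block. Cxcl9, which interferon gamma induces, had lowest, median and highest arrays of 6.82, 7.39 and 7.81 in vehicle, 6.21, 6.84 and 7.37 at 0.1 mg/kg, and 6.57, 7.05 and 7.44 at 0.959 mg/kg. They were 6.73, 7.07 and 7.73 at 9.59 mg/kg, 7.15, 7.55 and 8.84 at 95.9 mg/kg, and 7.02, 7.48 and 7.93 at 959 mg/kg. Of the 34 genes Cxcl9 had the largest share of its sum of squares between groups, 36.3%. Cxcl10 had lowest, median and highest arrays of 5.35, 5.82 and 6.08 in vehicle, 4.98, 5.60 and 6.25 at 0.1 mg/kg, and 5.35, 5.39 and 5.67 at 0.959 mg/kg. They were 5.18, 5.61 and 6.02 at 9.59 mg/kg, 5.37, 5.85 and 6.36 at 95.9 mg/kg, and 5.55, 5.80 and 7.75 at 959 mg/kg. The 7.75 was replicate 1 at 959 mg/kg, an array on which 24 of the 34 genes were at the low end of their group. Cxcl11 ran from 9.17 to 9.36 in vehicle and from 8.93 to 9.91 at 959 mg/kg.

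The antigen processing genes joined the spread in part. Psmb8, a catalytic subunit of the immunoproteasome, had lowest, median and highest arrays of 8.01, 9.27 and 10.2 in vehicle, 8.07, 8.82 and 9.34 at 0.1 mg/kg, and 8.04, 8.78 and 9.34 at 0.959 mg/kg. They were 8.76, 8.97 and 9.46 at 9.59 mg/kg, 8.16, 9.42 and 9.77 at 95.9 mg/kg, and 7.98, 9.18 and 9.62 at 959 mg/kg. The single brightest array for Psmb8 was a vehicle array. Tap1, which with Tap2 forms the peptide transporter of the endoplasmic reticulum, had lowest, median and highest arrays of 6.52, 7.22 and 7.85 in vehicle, 6.54, 6.73 and 7.24 at 0.1 mg/kg, and 6.58, 6.95 and 7.45 at 0.959 mg/kg. They were 6.84, 7.12 and 7.76 at 9.59 mg/kg, 6.63, 7.33 and 7.62 at 95.9 mg/kg, and 6.62, 7.24 and 7.58 at 959 mg/kg. B2m, the light chain of MHC class I, stayed narrow in absolute terms. Its lowest, median and highest arrays were 13.83, 13.95 and 14.01 in vehicle, 13.78, 13.87 and 14.0 at 0.1 mg/kg, and 13.81, 13.90 and 13.96 at 0.959 mg/kg. They were 13.82, 13.94 and 14.01 at 9.59 mg/kg, 13.78, 13.93 and 14.02 at 95.9 mg/kg, and 13.75, 13.96 and 13.98 at 959 mg/kg. Psmb9, another catalytic subunit of the immunoproteasome, had an SD of 0.43, whereas Tap2 had an SD of 0.16. Psme1 and Psme2, the subunits of the PA28 activator, spanned 1.27-fold and 1.40-fold over all arrays.

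The same arrays were low or high in gene after gene. Replicate 2 of vehicle was the lowest of its group for 32 of the 34 genes, and replicate 5 of vehicle the highest for 24. Replicate 4 at 0.959 mg/kg was lowest for 27, replicate 3 at 9.59 mg/kg for 26 and replicate 1 at 959 mg/kg for 24. At 0.1 mg/kg replicate 5 was lowest for 18 and replicate 6 highest for 25. At 95.9 mg/kg the low end was shared by replicate 5, for 18 genes, and replicate 2, for 15. Every group, vehicle included, thus had an array that was its lowest for at least 18 of the 34 genes. These counts are ranks within a group, where each gene must have a lowest array. The arrays also differed beyond these genes. The mean of the 34 on each array had r -0.65 with the first principal component, the largest shared pattern over all probe sets (9.94% of the variance). The sign of that component is arbitrary, and its part in the movement of these genes was not tested.

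This shared movement was measured by correlating each gene's deviations from its group means over the 36 arrays. The 561 pairs had a median Pearson's r of 0.71, and 79.9% lay above 0.5. Against the mean of the other measured genes, 31 of the 34 had an r above 0.5 and 14 above 0.9. Isg15 and Irf7 (0.98 each), Usp18 and Irf9 (0.98 each) led, and Mx1 (0.97), Tap1 (0.93), Psmb8 (0.87) and B2m (0.88) followed. The exceptions were Stat2 (0.48), Cxcl10 (0.32) and Cxcl11 (0.06). For the 14183 other genes the median r with the mean of the 34 was -0.00244, with 3.22% above 0.5 and 41 genes above 0.9. These correlations share the arrays and their RNA, and no p is given for them as a set.

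Irf7 was set against 14 other measures by the same deviations, with p from 100000 permutations within groups and Benjamini-Hochberg adjustment over the 14. The Irf7 deviations ran from -1.71 to 1.06, and their largest gap was 0.4. Irf7 and Isg15 rose and fell together (r 0.98, Spearman's rho 0.96), and r was 0.97 without the 2 arrays farthest out, vehicle replicate 2 and 95.9 mg/kg replicate 5. Within single dose groups that r ran from 0.97 to 0.99. Irf7 had an r of 0.95 with Mx1 (rho 0.93, 0.93 without those arrays), 0.87 with Psmb8 (rho 0.86, 0.84 without them), 0.87 with B2m (rho 0.81, 0.85 without them) and 0.73 with Cxcl9 (rho 0.75, 0.69 without them). For these 5 genes the permutation p was 1e-05 for r and for rho, the smallest that 100000 permutations can give (adjusted p = 2.33e-05). These genes share the arrays and their RNA with Irf7, and they were chosen with earlier results of these data known. A low p was therefore likely from the outset and is no separate evidence of a link. All 6 groups had a positive r for each of the 5 genes.

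The link of Irf7 to Stat2 was looser, with r 0.46 (permutation p = 0.00802, adjusted p = 0.016), rho 0.54 (adjusted p = 0.00328) and r 0.45 without the 2 farthest arrays. Cxcl10 had r 0.27 (permutation p = 0.15, adjusted p = 0.191) and rho 0.50 (adjusted p = 0.00878), with r 0.18 without the 2 farthest arrays and from -0.48 to 0.94 in single groups. On 959 mg/kg replicate 1 Irf7 was at the low end of its group and Cxcl10 at the high end, which is the point at the upper left of the plot of deviations. Cxcl11 had r 0.01 (permutation p = 0.968, adjusted p = 0.968), rho 0.10 (adjusted p = 0.636) and r -0.03 without the 2 farthest arrays.

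**Figure D4:**
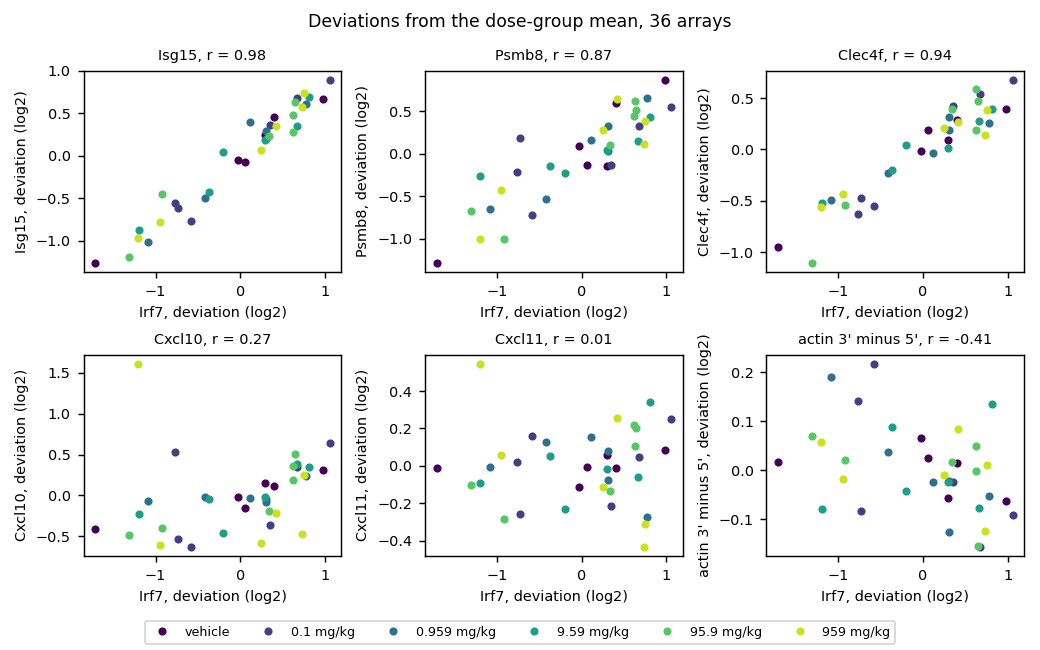
Deviation of 6 measures from their dose-group mean against that of Irf7 (both log2), a point for each of 36 arrays coloured by group. Isg15 (r 0.98), Clec4f (r 0.94) and Psmb8 (r 0.87) rise along a line, Cxcl10 (r 0.27) and Cxcl11 (r 0.01) do not, and the actin 3' minus 5' difference leans the other way (r -0.41).

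Markers of Kupffer cells and macrophages moved with the interferon genes between arrays. Irf7 and Clec4f, the lectin that marks rodent Kupffer cells, had r 0.94 and rho 0.89 (permutation p = 1e-05, adjusted p = 2.33e-05, 0.93 without the 2 farthest arrays) and from 0.95 to 0.98 within single groups. This p has the same limit as that of Isg15 and the genes named with it. Of 11 Kupffer cell and macrophage markers measured, 9 had an r above 0.5 with the mean of the 34 genes, among them C1qc (0.92), Csf1r (0.92), Cd5l (0.92) and Cd68 (0.90). Mrc1 (0.49) and Lyz2 (0.06) did not. In whole-liver RNA, fewer cells of a type and less RNA per cell cannot be told apart. The part of the macrophage markers in the spread of the interferon genes was not tested.

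Markers of other cells followed less. The median r with the mean of the 34 genes was 0.25 for 13 lymphocyte markers, 0.31 for 5 neutrophil markers, 0.34 for 5 endothelial markers, -0.06 for 3 plasmacytoid dendritic cell markers and -0.10 for 9 hepatocyte markers. Among the genes listed as lymphocyte markers Ptprc (0.73), Klrd1 (0.71) and Nkg7 (0.70) stood above 0.5. Of the 3 listed for plasmacytoid dendritic cells, Clec10a (0.52) stood above 0.5, and Flt3 (-0.06) and Bcl11a (-0.17) did not. A listed gene need not be particular to its cell type. Irf7 had r 0.38 with the T cell gene Cd3e (permutation p = 0.0362, adjusted p = 0.0507, rho 0.38 with adjusted p = 0.0473, r 0.42 without the 2 farthest arrays). With the endothelial gene Pecam1 it had r 0.39 (permutation p = 0.0345, adjusted p = 0.0507, rho 0.26 with adjusted p = 0.201, r 0.24 without them). With the hepatocyte gene Alb it had r 0.12 (permutation p = 0.524, adjusted p = 0.611, rho 0.14 with adjusted p = 0.502, r 0.17 without them).

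RNA quality moved with the interferon genes too. The actin 3' minus 5' difference went with lower Irf7 (r -0.41, permutation p = 0.0184, adjusted p = 0.0321, rho -0.42 with adjusted p = 0.0277, r -0.41 without the 2 farthest arrays), and the sign was positive in 1 of 6 groups. The matching GAPDH difference did not follow it (r 0.04, permutation p = 0.83, adjusted p = 0.894, rho -0.06 with adjusted p = 0.734, r -0.04 without them). With the actin difference as a covariate, the median SD of the 34 genes was 0.354 and the median correlation with the other measured genes was 0.853, against 0.883 without it.

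Beyond the 34 genes, 60 others of the interferon pathway were measured of 78 listed, and they divided by role. Of 31 other interferon-stimulated genes, 28 had an r above 0.5 with the mean of the 34 (median 0.84), and their median SD was 0.268. Of 16 receptors and signalling genes, 4 did, namely Ifngr1 (0.68), Jak2 (0.56), Ptpn6 (0.65) and Irf8 (0.74), and of 9 nucleic acid sensing genes 2 did, Tlr7 (0.86) and Zbp1 (0.55). Of the ligands measured, Ifnb1 (0.15), Ifng (-0.00767), Ifnk (-0.11) and Tnf (-0.00555), none did. Their probe sets were dim, with a mean over the ligands of 3.55 to 3.92 on single arrays. None of the 60 passed limma's threshold in any of the 8 comparisons described next (smallest adjusted p = 0.248, Erap1, which trims peptides for MHC class I). By the F-test of any dose, the smallest unadjusted p-values of each role belonged to Erap1 (0.00901, adjusted p = 0.474) and Sp100 (0.0623, 0.689), Irf2 (0.0367, 0.633) and Ifngr1 (0.0401, 0.642), Traf3 (0.00981, 0.490) and Sting1 (0.184, 0.790), and Ifnb1 (0.0724, 0.708) and Ifng (0.0966, 0.741), all from limma.

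Each dose was compared with vehicle to ask which transcripts differ, the comparison that the series' design names, at an adjusted p under 0.05. The 5 comparisons share the 6 vehicle arrays. A line over dose rank, a contrast of the 3 highest with the 2 lowest doses and a test of any dose made 8 comparisons. limma called 0 of the 34 genes in all 8, and limma without moderated variances also called 0. The smallest adjusted p among the 34 was 0.222 (Cxcl9, the 3 highest against the 2 lowest doses). Over all probe sets, limma called 0% at 0.1 mg/kg, 0.029% at 0.959 mg/kg, 0.116% at 9.59 mg/kg, 0.0902% at 95.9 mg/kg and 0.11% at 959 mg/kg. It called 0.393% for the line over rank, 0.106% for the 3 highest against the 2 lowest and 0.135% for any dose. At these shares, a count of 0 among 34 genes is near the background and is no result about them. The median standard error of a dose difference was 0.20 for the 34 genes and 0.0805 for all probe sets, so the same difference was harder to see in the interferon genes.

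At 0.1 mg/kg, 32 of the 34 genes had a mean below vehicle, against 46.8% of all probe sets. The median log2 difference was -0.253, against 0.00588 over all. Because the genes vary together between arrays, such counts, here and in the comparisons below, do not stand for 34 separate results. Mx1 averaged 4.58 ± 1.18 (SD, n = 6) against 5.54 ± 1.01 in vehicle, a log2 difference of -0.96 (95% interval -2.06 to 0.13). Usp18 differed by -0.99 (-2.06 to 0.09), Irf7 by -0.72 (-1.61 to 0.16), Isg15 by -0.50 (-1.22 to 0.23) and Psmb8 by -0.51 (-1.12 to 0.11). Cxcl9 (-0.53, SE 0.236, unadjusted p = 0.0324) and Gbp2 (-0.75, SE 0.346, unadjusted p = 0.0359) had an unadjusted p under 0.05, as had 3.79% of all probe sets, and both had adjusted p = 0.9999 by limma. Tap1 came next (-0.39, SE 0.199, unadjusted p = 0.0616).

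Single arrays moved this median, which ran from -0.385 to -0.164 with 1 array left out. Without vehicle replicate 2 it was -0.385, without vehicle replicate 5 it was -0.164, and without 0.1 mg/kg replicate 6, the array that stood apart, it was -0.344. Beside it, 10 of 11 macrophage markers lay below vehicle (median -0.410). Of these markers, 5 had an unadjusted p under 0.05 by limma, against 3.79% of all probe sets, with none past the adjusted threshold. Their mean level was 8.05 to 9.16 on single arrays against 8.38 to 9.29 in vehicle. Their part in the median of the interferon genes was not tested. The actin difference averaged 1.24 ± 0.147 at 0.1 mg/kg and 1.16 ± 0.0505 in vehicle (SD, n = 6). With it as a covariate the median was -0.128, and without the 4 arrays of highest actin difference it was -0.0950.

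At 0.959 mg/kg, 30 of the 34 genes lay below vehicle, against 48% of all probe sets, with a median log2 difference of -0.185. Psmb8 came nearest to a call, at 8.69 ± 0.503 against 9.30 ± 0.750 in vehicle (SD, n = 6), a log2 difference of -0.61 (SE 0.303, unadjusted p = 0.0527, adjusted p = 0.824 by limma). Ifit3 (-0.64, SE 0.365) and Oasl (-0.25, SE 0.146) followed. None of the 34 had an unadjusted p under 0.05, which 6.06% of all probe sets had. The median was -0.327 without vehicle replicate 2, -0.285 without 0.959 mg/kg replicate 5 and -0.0982 without 0.959 mg/kg replicate 4, and it was -0.0816 with the actin difference as a covariate. Of the 11 macrophage markers, 10 lay below vehicle (median -0.462) and 8 had an unadjusted p under 0.05, with none past the adjusted threshold, and their part was not tested.

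At 9.59 mg/kg, 27 of the 34 genes lay below vehicle, against 49.9% of all probe sets, with a median of -0.127. Ifih1 (-0.17, SE 0.0997, adjusted p = 0.664 by limma), Herc6 (-0.22, SE 0.199) and Gbp2 (-0.38, SE 0.346) had the smallest unadjusted p-values, and none of the 34 was under 0.05, as 8.61% of all probe sets were. Tap1 averaged 7.23 ± 0.335 against 7.23 ± 0.431 in vehicle (SD, n = 6), with an interval of the difference from -0.41 to 0.40. The median over the 34 genes was 0.00844 without 9.59 mg/kg replicate 3 and -0.229 without vehicle replicate 2. It was -0.0134 with the actin difference as a covariate and -0.196 without the 4 arrays of highest actin difference, of which 9.59 mg/kg replicate 2 is one. All 11 macrophage markers lay below vehicle (median -0.296), and their part was not tested.

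At 95.9 mg/kg, 22 of the 34 genes lay below vehicle, against 51.7% of all probe sets, with a median of -0.0386. Ifih1 differed by -0.18 (SE 0.0997, adjusted p = 0.758 by limma), Cxcl9 by 0.40 (SE 0.236, adjusted p = 0.804) and Tap2 by 0.12 (SE 0.0909). The difference of Cxcl9 was 0.180 without 95.9 mg/kg replicate 4, the array at 8.84. None of the 34 had an unadjusted p under 0.05, as 7.01% of all probe sets had. Without 95.9 mg/kg replicate 5 the median over the 34 was 0.0615, without vehicle replicate 2 it was -0.145, and with the actin difference as a covariate it was -0.0215. Of the 11 macrophage markers, 10 lay below vehicle (median -0.147), and their part was not tested.

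At 959 mg/kg, the dose with the highest Cyp1a1, 25 of the 34 genes lay below vehicle, against 50.5% of all probe sets, with a median of -0.0619. Irf7 differed by -0.28 (95% interval -1.16 to 0.60), Isg15 by -0.11 (-0.84 to 0.61), Mx1 by -0.09 (-1.19 to 1.01) and Psmb8 by -0.31 (-0.93 to 0.30). Narrow intervals belonged to B2m, at -0.04 (-0.14 to 0.07), and Stat2, at -0.03 (-0.20 to 0.13). For these probe sets the data bound a change in mean to a small size, and for Mx1 they leave room for about 1 log2 unit either way. A second, dimmer B2m probe set had an SD of 0.221 against 0.079, so the bound for B2m is that of its brightest probe set. Ifit2 (-0.25, SE 0.136, unadjusted p = 0.0802, adjusted p = 0.854 by limma), Cxcl10 (0.38, SE 0.260) and Herc6 (-0.26, SE 0.199) had the smallest unadjusted p-values, and none of the 34 was under 0.05, as 6.08% of all probe sets were. The difference of Cxcl10 was 0.0619 without 959 mg/kg replicate 1, so 1 array carried most of it. The median over the 34 was 0.0245 without that array, -0.182 without vehicle replicate 2 and -0.116 with the actin difference as a covariate. Of the 11 macrophage markers, 10 lay below vehicle (median -0.167), and their part was not tested.

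**Figure D5:**
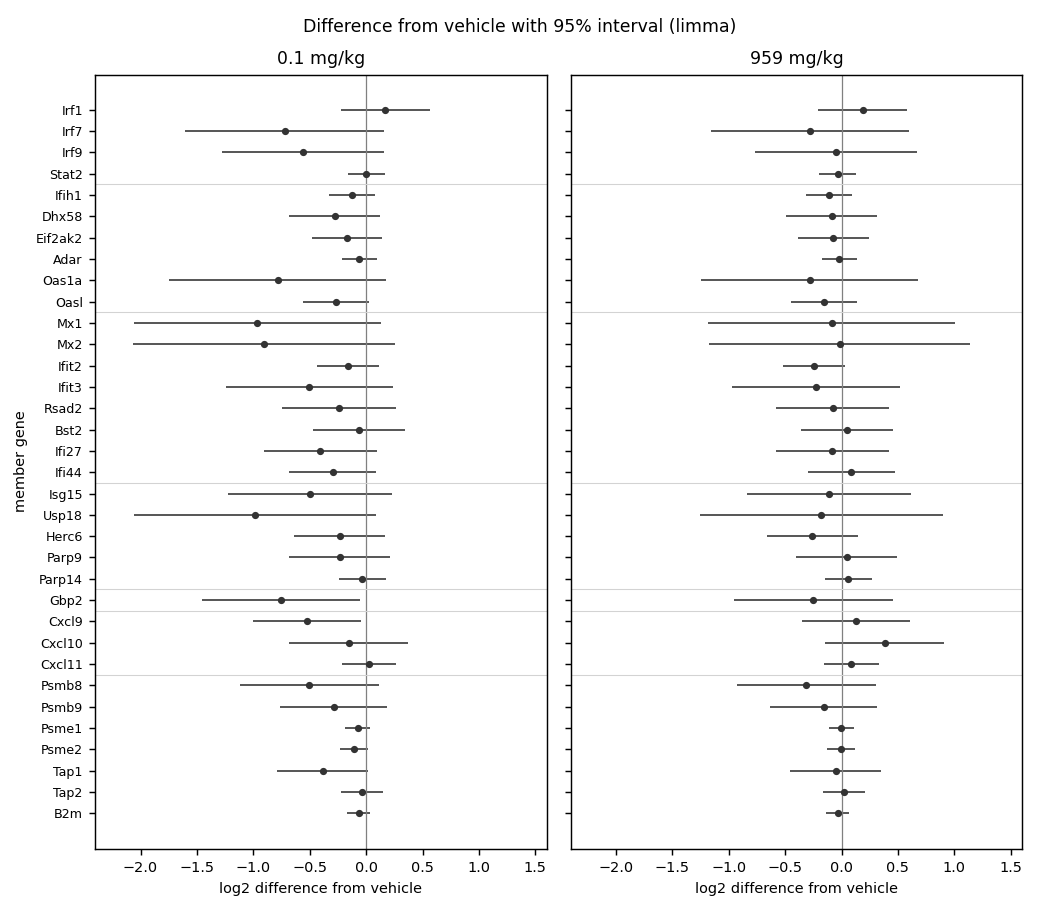
log2 difference from vehicle with its 95% interval from limma for the 34 genes, in blocks by role, at 0.1 mg/kg (left) and 959 mg/kg (right). At 0.1 mg/kg 32 points lie below 0, and only the intervals of Gbp2 and Cxcl9, unadjusted, leave out 0. At 959 mg/kg 25 points lie below 0, and the interval of Mx1 runs from -1.19 to 1.01.

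The 2 lowest doses had the medians farthest below vehicle in the fit of all arrays. Without the 4 arrays of highest actin difference the median was farthest below at 9.59 mg/kg (-0.196, against -0.0950 at 0.1 mg/kg and -0.0982 at 0.959 mg/kg), and with the actin difference as a covariate 959 mg/kg (-0.116) lay below 0.959 mg/kg (-0.0816). The contrast of the 3 highest with the 2 lowest doses had only 1 of the 34 genes below 0, against 53.7% of all probe sets. Its differences use no vehicle array, but its SEs and p-values draw on the spread within all 6 groups. The median difference was 0.151. An unadjusted p under 0.05 was reached by 6 of the 34 (17.6%), against 8.51% of all probe sets. They were Cxcl9 (0.55, SE 0.153, adjusted p = 0.222), Psme1 (0.09, SE 0.0353, adjusted p = 0.466), Psme2 (0.10, SE 0.0396, adjusted p = 0.477), Tap1 (0.30, SE 0.129, adjusted p = 0.514), Cxcl10 (0.36, SE 0.168, adjusted p = 0.555) and Mx2 (0.75, SE 0.369, adjusted p = 0.585), all by limma. None of these 6 was called. Without the 4 arrays of highest actin difference, 3 of which are in the 2 lowest dose groups, the median was -0.000331, and without 0.959 mg/kg replicate 4 alone it was 0.0955. With the actin difference as a covariate it was 0.0832. Of the 11 macrophage markers, 10 had a difference above 0 in this contrast (median 0.237), and their part was not tested.

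Over dose rank, the median slope of the 34 genes was 0.0133 log2 units a step. Its sign turned with the actin difference as a covariate (-0.00206) and without the 4 arrays of highest actin difference (-0.00432). Cxcl9 had a slope of 0.10 (SE 0.0400, unadjusted p = 0.0153, adjusted p = 0.408 by limma) and was the only one of the 34 with an unadjusted p under 0.05, which 8.71% of all probe sets had. Cxcl10 (0.08, SE 0.0439) and Psme2 (0.02, SE 0.0104) came next, and the slope of Cxcl10 was 0.0353 without 959 mg/kg replicate 1. limma's F-test of any dose left Cxcl9 alone under an unadjusted threshold of 0.05, with an unadjusted p = 0.00604 and adjusted p = 0.435 by limma, against 7.53% of all probe sets. By that test the adjusted p was 0.933 for Isg15, 0.932 for Irf7, 0.868 for Mx1, 0.861 for Psmb8, 0.820 for Tap1, 0.953 for B2m, 0.992 for Stat2 and 0.768 for Cxcl10.

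For 11 of the 34 genes the array holds further probe sets under the same symbol. Those of Irf9, Dhx58, Adar, Mx2, Ifit2, Parp14, Cxcl9 and Stat2 had the same sign of correlation with the other genes, and the second one of Stat2 followed them more closely (r 0.69 against 0.48). A second B2m probe set, at a mean level of 11.4 rather than 13.9, had an SD of 0.221 against 0.079 and an r of 0.88 like the first. Those of Psme1 (r -0.48) and Tap1 (r 0.10, at a level of 3.39) did not follow. None of these probe sets passed the threshold in any comparison.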

How the data were processed

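Liver RNA of 36 samples, 6 in each of 6 groups, was measured on 1-colour Affymetrix arrays. Sample titles gave the groups and replicate numbers. The deposited values are log2 RMA signals, made by the authors with the affy package per the submitters' processing notes (versions not given in the sources used here). RMA forces the arrays to 1 distribution, so levels are relative within an array. The table holds 31099 probe sets, of which 57 are array controls and were not tested. The annotation gave 1 symbol to 20826 of the rest, several to 436 and none to 9780, and a gene was named only from the first kind.

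One limma model (version 3.58.1, R 4.3.3) with a mean for each group was fitted to all probe sets with lmFit and eBayes, which left 30 residual degrees of freedom beside a prior worth 5.12. P-values were two-sided and adjusted by Benjamini-Hochberg over 31042 probe sets within each comparison, at 0.05. The series' design text names maanova, which was not at hand, and a fit without variance moderation stands nearest to it. Intervals are at 95% and unadjusted. Correlations used deviations from group means, with permutations within groups (numpy 2.4.6). Scripts were tested on simulated data. Promoters came from RefSeq (GRCr8).

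The genes, the lists of pathway genes and markers, and the tests were chosen with earlier results of these data known. Named in full were Isg15, Irf7, Mx1, Cxcl10, Psmb8, Tap1, B2m and Stat2, the 3 genes of smallest unadjusted p in each comparison, the 4 of largest and the 4 of smallest SD, and of each other list up to 2 by the F-test. Of genes outside the 34, the 8 with the highest and the 4 with the lowest correlation to their mean were named. Marker and pathway genes named for their correlation were picked after their values were seen. Alternatives covered normalization, level filter, probe set choice, variance model, array weights, a block for the replicate number, the arrays fitted, the dose scale, the actin difference as covariate and each array left out. Leaving out the 4 arrays of highest actin difference was chosen after seeing the data.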

Additional observations from a re-analysis of the deposited data

Results flagged for a closer look

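In 204 sets of 6 arrays (34 genes in 6 groups), 14 had a lowest or highest array whose gap to the next, as a share of the set's range, exceeded Dixon's 95% critical value (6.86% of the sets), and chance alone gives about 1 in 20. Because the genes vary together, these 14 are not separate events. Vehicle replicate 2 was the far array in 6 of them. Its level was 6.21 for Irf7 (next array 7.89), 6.29 for Irf9 (next 7.37), 6.39 for Rsad2 (next 7.17), 10.5 for Bst2 (next 11.2), 11.9 for Ifi27 (next 12.9) and 5.46 for Ifi44 (next 6.35). Replicate 4 at 0.959 mg/kg was far below the others for Mx2, at 3.89 (next 5.63), and for Ifi44, at 5.79 (next 6.25). Dhx58 was low at 9.59 mg/kg in replicate 3, at 4.56 (next 5.39), and at 959 mg/kg in replicate 1, at 4.76 (next 5.52). Adar was low at 959 mg/kg in replicate 6, at 6.54 (next 6.72). The 3 far arrays at the high end were Stat2 at 95.9 mg/kg in replicate 4, at 9.10 (next 8.79), Ifit2 at 9.59 mg/kg in replicate 2, at 8.75 (next 8.47), and Cxcl10 at 0.959 mg/kg in replicate 5, at 5.67 (next 5.40).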

How the results depend on the processing

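The count of called genes among the 34 stayed at 0 in every comparison under 13 other settings, where each could be run, and with each of 36 arrays left out. The lowest adjusted p reached was 0.114, for Cxcl9 in the 3 highest against the 2 lowest doses without 0.1 mg/kg replicate 6. The arrays fitted could not be restricted for the line over rank and for any dose, and the level filter left 32 of the 34 genes. The median SD within groups ran from 0.354 to 0.393 over the settings. The median correlation with the other genes, 0.883, was 0.853 both with the actin difference as a covariate and without the 4 arrays of highest actin difference, and 0.869 to 0.892 with 1 array left out. The median dose differences moved with single arrays and with the handling of the actin difference. With 1 array left out they ran from -0.385 to -0.164 at 0.1 mg/kg, -0.327 to -0.0982 at 0.959 mg/kg, -0.229 to 0.00844 at 9.59 mg/kg, -0.145 to 0.0615 at 95.9 mg/kg and -0.182 to 0.0245 at 959 mg/kg, and the line over rank from -0.00268 to 0.0284. With the actin difference as a covariate that slope was -0.00206, without the 4 arrays of highest actin difference it was -0.00432, and per log10 unit of dose without vehicle it was 0.0544. Over all probe sets, fitting only the groups compared lowered the calls from 9 to 1 at 0.959 mg/kg, 36 to 19 at 9.59 mg/kg, 28 to 16 at 95.9 mg/kg and 34 to 13 at 959 mg/kg. A line over log10 dose without vehicle lowered 122 to 29, array weights raised 33 to 50 in the 3 highest against the 2 lowest, and 1 probe set per gene lowered 9 to 5 at 0.959 mg/kg. With 1 array left out, calls over all probe sets ran from 4 to 10 at 0.959 mg/kg, 20 to 45 at 9.59 mg/kg, 19 to 38 at 95.9 mg/kg, 22 to 42 at 959 mg/kg, 17 to 51 in the 3 highest against the 2 lowest, 92 to 156 for the line over rank and 31 to 63 for any dose. The replicate numbers did not pair the arrays, since deviations of same-numbered arrays had a mean r of -0.0221 against 0.00446 for other pairs, and 6 of 36 arrays correlated best with their own number. With the replicate number as a block, 0 of the 34 genes were called in each comparison, the median SD was 0.393 and the median correlation 0.894.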

Other observations

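Outside the 34 genes, the 8 whose deviations followed the mean of the 34 most closely over the 36 arrays were led by Rtp4. Rtp4, an interferon-stimulated chaperone of receptors, had r 0.97 and an SD of 1.05 within groups, close to that of Mx1 and Mx2. Ms4a6a (r 0.97, SD 0.97) and Ms4a6bl1 (r 0.97, SD 0.67) belong to a family expressed in macrophages. Ly6e (r 0.97) and Lgals3bp (r 0.96) are interferon-induced, and both are among the more variable probe sets, with SDs of 0.69 and 0.62. Fcer1g (r 0.96), the signalling chain of Fc receptors on myeloid cells, and RT1-S3 (r 0.96), a rat MHC class I gene, followed, as did LOC100910973 (r 0.96). At the other end stood Krit1 (r -0.66), Atp8b1 (r -0.66), a lipid flippase of the bile canaliculus, Zfp869 (r -0.62) and Mmadhc (r -0.62), which acts in cobalamin metabolism, each with an SD between 0.12 and 0.17. All 12 were picked as the extremes of 14183 genes, so their correlations are a description, and limma called none of them in any comparison (smallest adjusted p = 0.552).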
